A study of Mus musculus with 4 samples.

Results

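Small nucleolar RNAs (snoRNAs) and small Cajal body RNAs (scaRNAs) are short guide RNAs of the nucleus. Box C/D snoRNAs base-pair with ribosomal RNA and direct 2'-O-methylation by fibrillarin, box H/ACA snoRNAs direct pseudouridylation by dyskerin, and scaRNAs do the same for spliceosomal RNAs in Cajal bodies. In mammals most of them are cut out of introns of host genes, many of which encode ribosomal proteins or are noncoding RNAs of the Snhg family. Their members were read from RNA sequencing of imMDFs, immortalized fibroblasts of mouse dermis, that were *Tmpo* WT (Lap2alpha +/+ in the sample labels) or *Tmpo* KO (Lap2alpha -/-). *Tmpo* encodes the LAP2 proteins of the nuclear lamina and nucleoplasm, of which LAP2alpha is the nucleoplasmic form. Each genotype was sequenced once at passage 34 (replicate 1) and once at passage 42 (replicate 2), without any treatment.

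The members are the genes whose RefSeq symbol begins with Snora, Snord or Scarna followed by a digit. They numbered 114, with 1 transcript ID each, of 32757 IDs in the table, namely 36 box H/ACA snoRNAs (Snora), 69 box C/D snoRNAs (Snord) and 9 scaRNAs (Scarna). The choice used names only and no measured value. Reads given to transcripts numbered between 12168433 and 19603812 per library, and reads in no transcript were between 49.9% and 56.5% of all reads. The paper describes deletion of *Tmpo* exon 4 as a specific loss of LAP2alpha. For the *Tmpo* ID NM_011605, reads numbered 903 (passage 34) and 1324 (passage 42) with the WT genotype, against 6 in either KO library. The ID NM_001283048 was low and similar between genotypes, at 9 (WT) and 12 (KO) reads at passage 34. At passage 42 it held 16 (WT) and 19 (KO). The remaining *Tmpo* IDs were at 0 in every library, WT included. A loss of the whole gene is therefore not shown. No more than 1 line of each genotype is named, so effects of the deletion and of the line cannot be told apart. Whether replicates came from separate cultures is not stated apart from the passage, and p-values then measure a spread that may be technical. The 8 fibroblast markers summed to between 11941 and 16137 CPM (counts scaled to the library size) in a library, led by Col1a2 and Vim, but Pdgfra was at no more than 4.07 CPM and Pdgfrb was at 0 in every library. Each marker is read from 1 transcript ID, and reads that fit several IDs were given to none (12.1% to 13.4% of all reads). A marker at or near 0 is therefore not shown to be silent. The 3 endothelial markers summed to 5.28 to 6.10 CPM, with Pecam1 at 0 in both WT libraries and Cdh5 at 2.38 to 3.37 CPM. The 4 leukocyte markers summed to 1.02 to 1.17 CPM, with Cd3e at 0.763 to 1.17 CPM, Ptprc at 0 to 0.254 CPM, and Cd68 and Itgam at 0. Keratinocyte markers summed to 10.8 to 13.9 CPM, melanocyte markers to 29.7 to 43.7 CPM, most of it Tyr (26.3 to 40.1 CPM), and muscle markers to 2.90 to 6.69 CPM. Among the fibroblast markers Thy1 was higher in KO (log2 fold change 1.80, SE 0.27, adjusted p = 0.00469, edgeR) and Col1a1 was higher at passage 42 (0.95, SE 0.21, adjusted p = 0.00113). The part of these shifts in the results was not tested.

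Sequences are shown for the 5 placed members that were called between the passages in the main fit. They are also shown for the most abundant box C/D, box H/ACA and Cajal body RNA, and for Snord11, which had the lowest p of KO against WT. All were read from NCBIM37 (mm9), 5′ to 3′ on the strand of the RNA. In the box C/D RNAs the capitals mark the C box letters TGATGA in the first 20 nt, where they are present, and the D box letters CTGA in the last 20 nt, and in the others they mark ACA in the last 8 nt.
Snord83b: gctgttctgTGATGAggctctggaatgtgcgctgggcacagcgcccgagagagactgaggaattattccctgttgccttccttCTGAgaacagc
Snord66: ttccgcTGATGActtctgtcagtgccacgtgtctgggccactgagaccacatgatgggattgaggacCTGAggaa
Snord69: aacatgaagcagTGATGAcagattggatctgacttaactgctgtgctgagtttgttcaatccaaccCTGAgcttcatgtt
Snord32a: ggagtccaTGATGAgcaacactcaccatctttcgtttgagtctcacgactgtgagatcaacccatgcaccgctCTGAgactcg
Snora7a: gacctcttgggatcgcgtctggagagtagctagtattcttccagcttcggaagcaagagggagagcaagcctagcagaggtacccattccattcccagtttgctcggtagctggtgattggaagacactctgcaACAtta
Snord22: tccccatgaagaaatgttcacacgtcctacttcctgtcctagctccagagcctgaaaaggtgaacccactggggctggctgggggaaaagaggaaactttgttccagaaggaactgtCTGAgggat
Snora65: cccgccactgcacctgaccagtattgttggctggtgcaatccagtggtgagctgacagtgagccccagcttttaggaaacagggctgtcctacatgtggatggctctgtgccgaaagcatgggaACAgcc
Scarna13: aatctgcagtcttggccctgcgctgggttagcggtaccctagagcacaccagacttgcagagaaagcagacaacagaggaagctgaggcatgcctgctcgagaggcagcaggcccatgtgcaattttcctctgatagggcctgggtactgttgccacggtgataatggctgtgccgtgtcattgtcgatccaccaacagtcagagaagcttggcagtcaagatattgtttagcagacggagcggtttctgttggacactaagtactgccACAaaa
Snord11: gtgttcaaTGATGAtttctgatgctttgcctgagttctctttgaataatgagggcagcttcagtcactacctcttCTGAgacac

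Snord83b lies at chr15:79908928-79909021 on the minus strand in an intron of Rpl3, and Snord66 at chr16:20684312-20684386 on the plus strand in an intron of Eif4g1. Snord69 lies at chr14:31827473-31827552 on the minus strand in an intron of Gnl3, and Snora7a at chr6:115757993-115758132 on the minus strand in an intron of Rpl32. Snord32a, at chr7:52382752-52382834 on the minus strand, overlaps an exon of at least 1 transcript of Rpl13a. Snord22, at chr19:8800356-8800481 on the plus strand, overlaps an exon of at least 1 transcript of Snhg1. Snora65, at chr2:32818811-32818940 on the plus strand, overlaps an exon of at least 1 transcript of Rpl12. Snord11 lies at chr1:59761634-59761717 on the plus strand in an intron of Nop58, the gene of a core box C/D protein. Scarna13, at chr12:106269285-106269559 on the minus strand, lies outside other annotated genes of its strand.

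The annotated sequences carried the box of their class. Of 56 placed box C/D members, 55 (98.2%) held CTGA in their last 20 nt and 34 (60.7%) held TGATGA in their first 20 nt, against 8 (14.3%) and 0 of the windows of the same length directly upstream. Snord22 lacks TGATGA in that window. Of 32 placed box H/ACA members, 30 (93.8%) held ACA in their last 8 nt, against 2 (6.25%) of the upstream windows. The 9 scaRNAs were mixed, with CTGA in 5 and ACA in 4. Only the strand of the RNA was searched, and a match is a description of letters.

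The members together took between 0.537% and 0.627% of the reads given to transcripts. The RNA had been selected for more than 200 bp before library preparation, and only 5 of the 97 members with a position are annotated as longer than that. Counts of the others therefore describe what remained of short RNAs or of longer precursors that hold them, which cannot be told apart here. No count was found in any library for 8 members, which allows up to 3 counts in each, and 100 members had a count in all 4. The filter on low values, at least 1 CPM in both libraries of a genotype, was passed by 95 members (30 box H/ACA, 57 box C/D and 8 scaRNAs). By the same filter 20 of 1070 miRNA hairpin IDs, another set of short features that often lie in introns, were retained.

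Few members held most of the reads. Snord22, the U22 RNA that takes part in 18S rRNA processing, alone made up 12.1% of the summed mean CPM, the 6 most abundant members made up 35.7%, and the 10 most abundant 49.0%. Snord22 stood at 667 and 529 CPM at passage 34 and at 669 and 1003 CPM at passage 42, here and in all that follows with WT before KO. The KO library at passage 42 was therefore above all the others, and the KO library at passage 34 below them. The next in rank were box H/ACA RNAs. Snora65 had 480 and 444 CPM at passage 34 and 342 and 366 at passage 42, and Snora7a had 339, 322, 218 and 195 CPM in the same order of libraries. Both were lower in each library of passage 42 than in each of passage 34. Snora74a, with 299, 296, 168 and 251 CPM, had the same order. Snora78 (232, 313, 196 and 242 CPM), Snora81 (287, 202, 187 and 249 CPM) and Snora64 (227, 223, 202 and 228 CPM) completed the upper box H/ACA members. Of the 20 most abundant members 13 were box H/ACA and 7 box C/D.

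Per kb of annotated length, box H/ACA members had a median of 596 CPM per kb (n = 32), box C/D members 80.8 (n = 56) and scaRNAs 112 (n = 9). This scale does not correct for any unequal retention of short RNAs in the size selection. The order of single members was led by Snord22 with 5690 CPM per kb, followed by Snora65 with 3139, Snord32a with 2821, Snord104 with 2358 and Snord100 with 2298, so that 4 of the highest 5 were box C/D. The box C/D class was thus wide, from 0.819 CPM per kb for Snord64 upward. Snord64 had 3 reads in all, and Snord116l1 and Snord116l2 had none. These belong to an imprinted snoRNA region that is known for its activity in neurons. Snora35, which is known from brain, had 5 reads and the lowest level of the detected box H/ACA members, 0.568 CPM per kb. Low or absent counts were not confined to such members. Snord1a in Snhg16 and Snord45c in Rabggtb had none, and Snora34 in Kansl2 had 0.822 CPM per kb. The part of tissue or of the size selection in these low values was not tested.

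**Figure D1:**
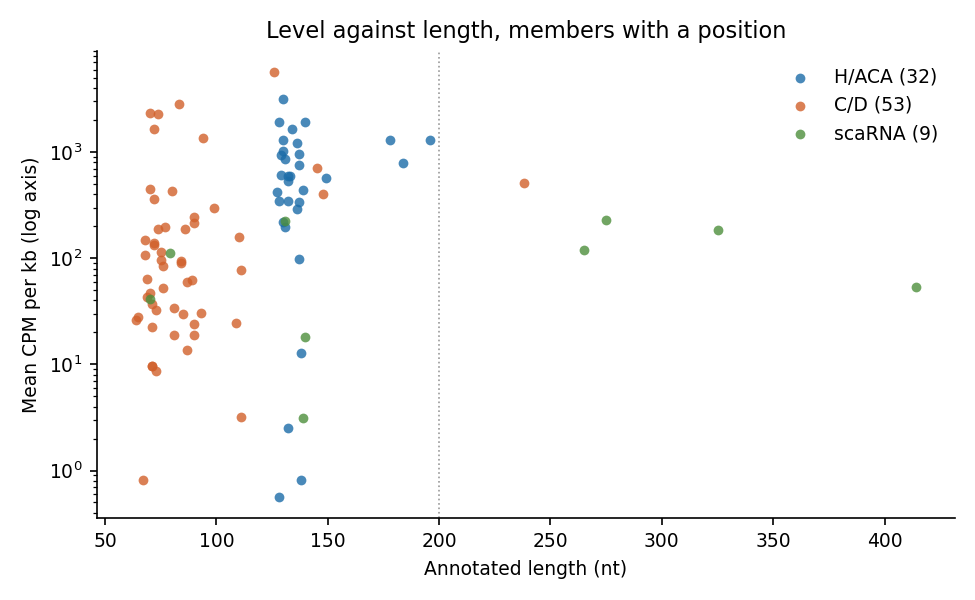
Mean CPM per kb over the 4 libraries (log axis) against annotated length in nt, for the members with a position and at least 1 count; each point is a member and the dotted line marks 200 nt. Box H/ACA members sit together between 127 and 196 nt and mostly above the box C/D members of 64 to 99 nt, while the 5 members beyond 200 nt have a median of 184 CPM per kb.

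Length and class went together. Members of up to 100 nt had a median of 63.1 CPM per kb (n = 50), those over 100 and up to 200 nt 486 (n = 42) and the 5 over 200 nt 184. Over the 94 members with a length and a count, length and log2 CPM per kb had a Pearson r of 0.18 and a Spearman rho of 0.34, which is a description across members that share libraries. The plot of level against length shows these values. The part of the size selection in the difference between the classes was not tested. The intervals in which the authors counted may be shorter or longer than the annotation used for length, and 17 members had no position.

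The members longer than 200 nt were Snord17 and 4 scaRNAs. Snord17 had 119 and 135 CPM at passage 34 and 93.7 and 143 at passage 42. Scarna13 was measured at 67.7, 63.6, 44.4 and 77.9 CPM in the same order, so WT at passage 42 was the lowest. Scarna10, the U85 RNA that carries both kinds of box and guides both modifications in U5, had 81.3, 41.7, 54.8 and 61.6 CPM. Scarna6 (32.8, 34.9, 22.8 and 37.2 CPM) and Scarna2 (20.6, 18.7, 19.6 and 29.7 CPM) were lower. In Snord17 and Scarna6 both KO libraries were above both WT libraries, and none of the 5 passed the test in either comparison. Of the shorter scaRNAs, Scarna8 varied from 26.1 to 32.1 CPM and Scarna17 from 5.70 to 10.6 CPM.

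The sums over each class give the reads counted in its listed members. Box H/ACA members summed to 3861 and 3512 CPM at passage 34 and to 3121 and 3411 at passage 42. The KO mean of 3462 ± 71.3 CPM (SD, n = 2) lay within the spread of WT, 3491 ± 524 (SD, n = 2). Both libraries of passage 42 were below both of passage 34, with means of 3266 ± 205 and 3687 ± 247 CPM (SD, n = 2), a log2 difference of -0.17. The exact two-sided permutation test gave p = 0.333, the smallest that 2 libraries against 2 allow.

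Box C/D members summed to 2095 and 2163 CPM at passage 34, and to 2053 and 2698 at passage 42. Both KO libraries were above both WT libraries (2431 ± 378 against 2074 ± 29.7 CPM, SD, n = 2, log2 difference 0.22, exact permutation p = 0.333). The difference was 0.06 without the KO library of passage 42 and 0.38 without that of passage 34. Without Snord22 the box C/D sums were 1428 and 1384 CPM in WT and 1634 and 1695 in KO, a log2 difference of 0.24 with the same p, and the KO libraries were still above the WT libraries. The 48 box C/D members of up to 100 nt summed to 1037 and 1054 CPM in WT and 1272 and 1240 in KO (1045 ± 12.5 against 1256 ± 22.7, SD, n = 2), which is a choice made after the values were seen. The scaRNAs summed to 244 and 205 CPM at passage 34 and 184 and 251 at passage 42, and their genotypes overlapped.

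**Figure D2:**
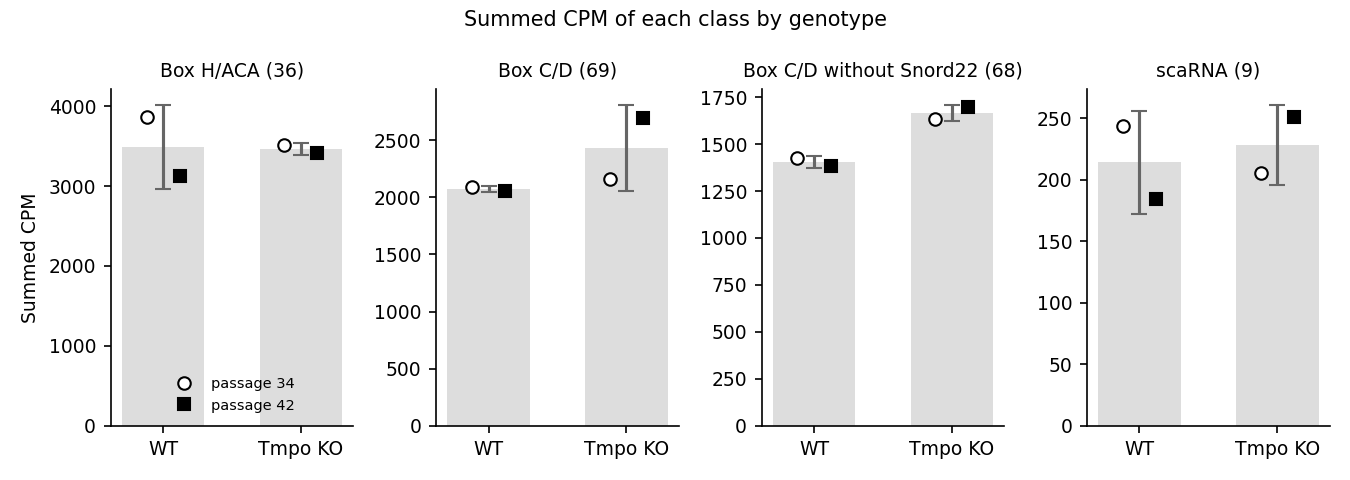
Summed CPM of each class by genotype; bars are means of 2 libraries with SD, circles are passage 34 and squares passage 42, and each axis starts at 0. Box C/D sums of both KO libraries lie above those of WT with and without Snord22, whereas box H/ACA and scaRNA sums overlap between the genotypes.

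As a ratio within a library, which does not depend on the scaling, box H/ACA over box C/D was 1.84 and 1.62 at passage 34, and 1.52 and 1.26 at passage 42. KO was below WT at each passage, and passage 42 below passage 34 in each genotype. Without Snord22 the ratio was 2.70 and 2.15 at passage 34 and 2.26 and 2.01 at passage 42, in the same order.

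For single members, no snoRNA or scaRNA passed the test of KO against WT. Of 95 members tested 0 were called by edgeR's quasi-likelihood test at an adjusted p under 0.05, against 2.75% of all 13855 IDs tested (1.51% higher and 1.24% lower in KO), and 4 members had an unadjusted p under 0.05, against 12.8% of all IDs. DESeq2 and edgeR's exact test also called 0 members, against 3.93% and 4.42% of all IDs, and a block for the replicate number called Snord11 alone, against 7.88%. Fits without 1 KO library leave a single KO library, which was assumed to vary like the 2 WT libraries, and the calls rest on that. Without the KO library of passage 34 such a fit called 6 members higher in KO, with 5.91% of all IDs called, and without the KO library of passage 42 it called Snord42a lower (log2 fold change -1.91, adjusted p = 0.0343, edgeR, against 0.01 with all 4 libraries), with 8.52% called. The 6 were Snord87, Snord91a, Snord70, Snord95, Snord11 and Snord83b, with log2 fold changes between 0.83 and 1.65.

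Snord11 had the lowest p. It was at 4.28 and 9.82 CPM at passage 34 and at 5.91 and 11.3 at passage 42, so the genotypes did not overlap, and the log2 fold change was 1.05 (SE 0.33, adjusted p = 0.166, edgeR). Its host Nop58 was at 146 and 171 CPM at passage 34 and at 144 and 173 at passage 42, a log2 fold change of 0.25 (adjusted p = 0.704). Snord91a, which lies in an intron of Tsr1, had 1.26 and 2.58 CPM at passage 34 and 2.23 and 5.38 at passage 42 (1.18, SE 0.48, adjusted p = 0.314, edgeR), and its KO libraries were both above the WT libraries. Snord73b had 16.3, 27.4, 22.1 and 31.2 CPM (0.61, SE 0.26, adjusted p = 0.359), again without overlap, and Snord33 had 6.46, 9.82, 5.15 and 8.74 CPM (0.68, SE 0.33, adjusted p = 0.432).

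The 4 members with the smallest p among those lower in KO were 3 box H/ACA RNAs and a scaRNA. Snora20 was at 60.3 and 34.1 CPM at passage 34 and at 46.6 and 35.2 at passage 42 (log2 fold change -0.62, SE 0.23, adjusted p = 0.247, edgeR). Snora44 (122, 99.9, 151 and 113 CPM) and Snora16a (182, 143, 185 and 149 CPM) lie together in Snhg12, and each was lower in both KO libraries than in both WT libraries, with log2 fold changes of -0.36 and -0.33. Their host Snhg12 itself had 21.9 and 25.2 CPM at passage 34 and 20.6 and 17.3 at passage 42, with no difference past the test (adjusted p = 0.999). Scarna10 had a log2 fold change of -0.40 (SE 0.26, adjusted p = 0.63).

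The fold changes of KO against WT were also summarised by class, with no test between the classes. The median log2 fold change was 0.21 over 57 box C/D members, of which 44 were above 0, and -0.04 over 30 box H/ACA members, of which 13 were above 0. Over 8 scaRNAs it was 0.20 with 6 above 0. Over all IDs tested the median was 0.02 and 51.6% were above 0. Within passage 34 the medians were 0.17 for box C/D and -0.16 for box H/ACA, and within passage 42 they were 0.26 and 0.14. The box C/D median was thus above 0 at each passage, whereas that of box H/ACA changed sign, with 8 of 30 members above 0 at passage 34 and 22 of 30 at passage 42. All IDs tested had medians of 0.01 at each passage. Split at 20 CPM, chosen after the values were seen, all IDs under it had 0.13 at passage 34 and 0.01 at passage 42. The 42 box C/D members under it had 0.12 and 0.24. At 20 CPM or more, all IDs had -0.08 and 0.002, box C/D members 0.18 and 0.33, and box H/ACA members -0.24 and 0.11. The part of level in the class difference was not tested. Both KO libraries were above both WT libraries in 22 members, 23.2% of those tested against 21.9% of all IDs, and below in 11, 11.6% against 19.9%. Without the KO library of passage 42 the box C/D median was 0.03 and without that of passage 34 it was 0.44. Without the WT library of passage 34 the medians of box C/D and box H/ACA were 0.19 and 0.18.

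**Figure D3:**
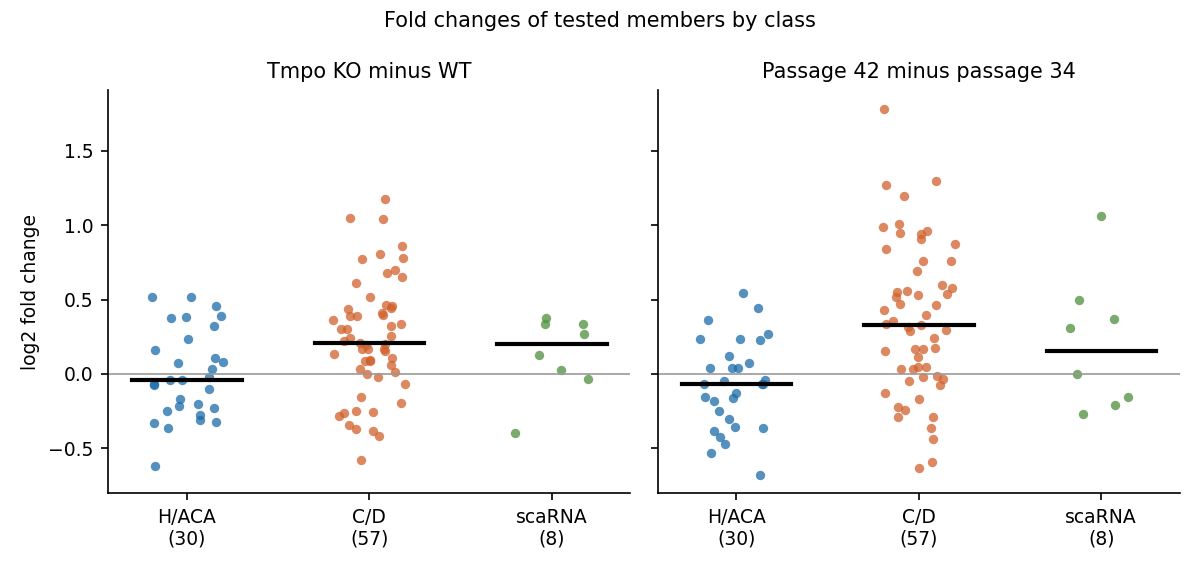
Fitted log2 fold change of each tested member by class, for KO minus WT and for passage 42 minus passage 34; black lines are class medians and points are spread sideways at random. Box C/D medians are 0.21 and 0.33 and box H/ACA medians -0.04 and -0.07, and the highest points of the passage comparison are box C/D members.

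Members were called with passage. In both genotypes passage 34 is also replicate 1 and passage 42 replicate 2. An effect of passage therefore cannot be told apart from any other difference between the replicates, such as one in RNA or library preparation. Of 95 members 6 were called between passage 42 and passage 34 with genotype as a block, against 2.31% of all IDs, 4 of them higher (1.77% of all IDs) and 2 lower (0.541%), and 24 had an unadjusted p under 0.05, against 11.6% of all IDs. The calls depended on the genotype block. In a fit without it 0 members were called, as were 0 of all 13855 IDs (0.0%), so that fit says little of the members in particular. The fits without 1 library also had no genotype block, since both terms would leave no residual degree of freedom, and called 0 members, where 0.0559% of all IDs were called without the WT library of passage 42, 0.0132% without the KO library of passage 42 and 0 without either of passage 34. The 6 members kept their direction in these fits, with log2 fold changes of 0.76 to 1.23 for Snord83b, at most 2.35 for Snord87, 0.95 to 1.57 for Snord66, 0.74 to 0.95 for Snord69, -0.77 to -0.59 for Snora7a and -0.94 to -0.34 for Snord32a when 1 library was left out. With the block kept, DESeq2 called Snord83b alone, against 0.289% of all IDs, and the likelihood ratio test called Snord83b, Snord87 and Snord66, against 1.36%.

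The 4 members that were higher at passage 42 were box C/D RNAs. Snord83b was at 71.1 and 98.6 CPM at passage 34 and at 144 and 192 at passage 42, so it was higher in each genotype and the passages did not overlap (log2 fold change 0.99, SE 0.18, adjusted p = 3.63e-05, edgeR). Its host Rpl3 had 1115 and 1065 CPM at passage 34 and 988 and 1277 at passage 42, a log2 fold change of 0.04 (adjusted p = 0.971). Snord87 was at 1.26 and 2.46 CPM at passage 34 and 4.13 and 8.79 at passage 42 (1.78, SE 0.41, adjusted p = 0.00228). Snord66 was at 4.45 and 3.93 CPM at passage 34 and 8.01 and 12.5 at passage 42 (1.27, SE 0.36, adjusted p = 0.0235). Snord69 was at 24.1 and 24.9 CPM at passage 34 and 40.3 and 47.4 at passage 42 (0.84, SE 0.25, adjusted p = 0.0428). In all 4 the libraries of passage 42 were above those of passage 34. Snord19, the other member within the Snord69 host Gnl3, stayed between 3.38 and 4.70 CPM (log2 fold change -0.02). The tabled IDs of the hosts Gnl3 and Eif4g1 were under 2 CPM in every library and were not tested.

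Snora7a and Snord32a were lower at passage 42. Snora7a, whose CPM are given above, had a log2 fold change of -0.68 (SE 0.18, adjusted p = 0.0138, edgeR), and its host Rpl32 was at 766 and 559 CPM at passage 34 and 573 and 616 at passage 42 (-0.14, adjusted p = 0.875). Snord32a was at 228 and 346 CPM at passage 34 and at 181 in both genotypes at passage 42 (-0.63, SE 0.18, adjusted p = 0.0283). The KO library of passage 34 was therefore the one that stood apart in Snord32a. Snora74a (-0.53, SE 0.18, adjusted p = 0.0952) and Snord100 (-0.44, SE 0.18, adjusted p = 0.242) had lower values at passage 42 that did not pass the test.

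**Figure D4:**
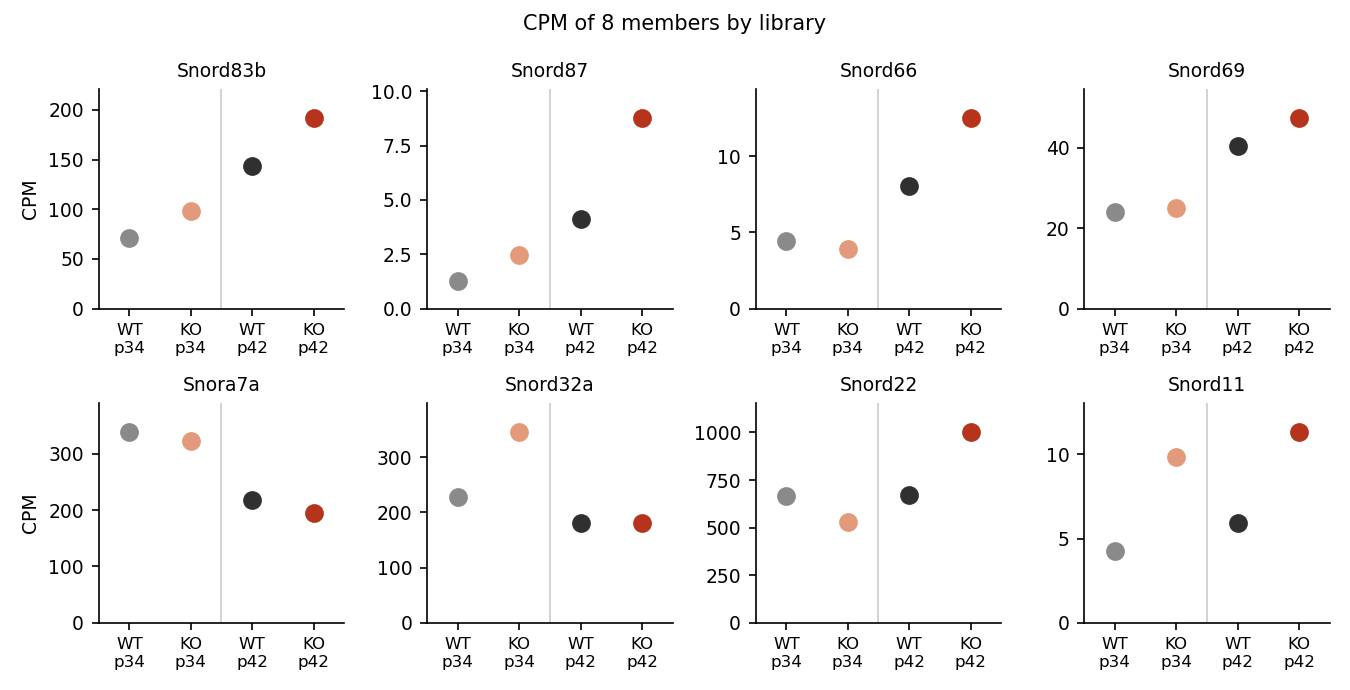
CPM of 8 members in each library, passage 34 on the left and passage 42 on the right of each panel, grey for WT and red for KO, with each axis starting at 0. The first 4 panels are higher at passage 42 and the next 2 are lower, whereas Snord22 is highest in KO at passage 42 and Snord11 is higher in KO at each passage.

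Box C/D members as a class had a median log2 fold change of 0.33 with passage, and 42 of 57 were above 0, while box H/ACA members had -0.07 with 12 of 30 above 0 and scaRNAs 0.15 with 4 of 8. Over all IDs the median was 0.01 and 51.0% were above 0. In WT the medians were 0.21 for box C/D and -0.19 for box H/ACA, and in KO they were 0.38 and 0.07. Both libraries of passage 42 were above both of passage 34 in 24 members, 25.3% against 18.0% of all IDs, and below in 12, 12.6% against 15.8%. With all reads in the file as library size the median of all IDs was -0.13 and that of the members 0.02.

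The members' level went with their fold change. Over the 95 tested, log2 mean CPM and the log2 fold change with passage had a Pearson r of -0.52 and a Spearman rho of -0.54, whereas over all 13855 IDs tested r was 0.12. Among box C/D members under 20 CPM 34 of 42 were above 0 and among those of at least 20 CPM 8 of 15, with medians of 0.33 and 0.31. The 27 box H/ACA members of at least 20 CPM had a median of -0.07. These correlations are across members that share libraries and hosts, and the split at 20 CPM was chosen after the values were seen.

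The host genes allow the members to be set against the transcripts that carry them. Of the 97 members with a position 90 lay inside a gene of their strand, 59 in introns and 31 overlapping an exon of at least 1 host transcript, and 7 lay outside. Ribosomal protein genes (21, with Rack1 counted among them) held 29 members and 6 Snhg genes held 12, and 17 hosts held 2 or more members, 41 in all. Both member and host were tested for 68 members of 50 hosts, and 0 hosts were called in either comparison, against 2.75% and 2.31% of all IDs, while 0 of these members were called with genotype and 3 with passage (Snord83b, Snora7a and Snord32a). The log2 fold changes of member and host had a Pearson r of 0.42 for KO against WT and 0.10 for passage, with Spearman rho of 0.42 and 0.06 (n = 68, several members sharing a host and all sharing libraries). With genotype the median member was 0.12 above its host, and box C/D members were above theirs in 27 of 38. With passage it was 0.14 above its host, and 0.32 above in box C/D.

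**Figure D5:**
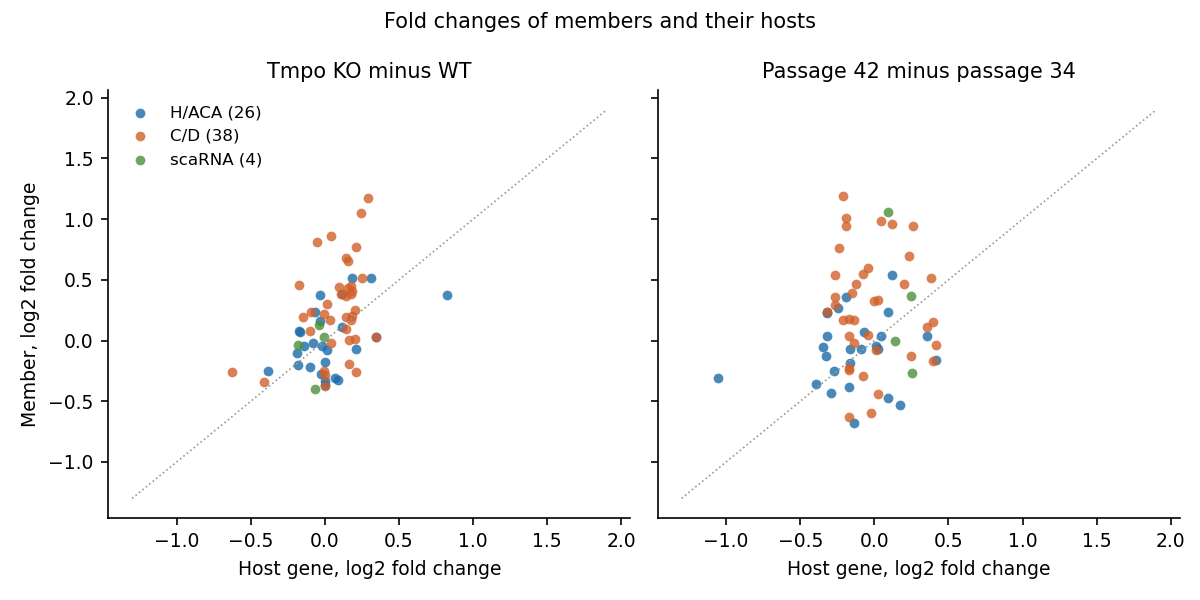
Log2 fold change of a member (vertical) against that of its host gene (horizontal), for KO minus WT and passage 42 minus passage 34, with 1 point for each of 68 members and a dotted line of equality. The points follow the line loosely for genotype (r = 0.42) and not for passage (r = 0.10), and hosts span a narrower range than members.

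Members of 1 host differed widely in CPM per kb, a scale that is not corrected for the size selection. Rpl13a holds Snord32a, Snord34, Snord35a and Snord33, whose levels ran from 89.8 to 2821 CPM per kb, a 31.4-fold range, and whose fold changes with passage ran from -0.63 to 0.03. Snhg12 holds Snora61, Snora16a, Snora44 and Snord99, which spanned 6.88-fold per kb, and all 4 had a fold change of KO against WT below 0, from -0.36 to -0.17. The 3 members of 2410006H16Rik (Snord49b, Snord49a and Snord65) were all above 0 in both comparisons, from 0.17 to 0.45 with genotype and from 0.29 to 0.54 with passage, and none was called. In Eif4a2, Snora81 was 20.6 times the level of Snord2 per kb. In Nop58, Snord11 was tested and Snord70, at 0.923 and 0 CPM at passage 34 and 1.02 and 2.79 at passage 42, was not.

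The genes that make, move and package these RNAs were looked up in lists of proteins and hosts. None of them was called in either comparison, against 2.75% (genotype) and 2.31% (passage) of all IDs. In lists this short 0 calls are near those shares. The 4 box H/ACA core proteins (Dkc1, Nop10, Nhp2 and Gar1) had a median log2 fold change of 0.06 with genotype and -0.01 with passage, with Dkc1, the pseudouridine synthase, between 150 and 197 CPM. The 4 box C/D core proteins (Fbl, Nop56, Nop58 and Snu13) had 0.15 and -0.05, and all 4 were above 0 with genotype without passing the test. Fbl, the methyltransferase, was at 108 and 154 CPM at passage 34 and at 139 and 112 at passage 42. The assembly factors had medians of 0.39 (2 box H/ACA factors) and 0.17 (6 tested box C/D factors) with genotype, the highest being Shq1 with 0.45 (adjusted p = 0.643) and Ruvbl2 with 0.39 (adjusted p = 0.451). The Cajal body and nucleolar scaffold list (6 tested) held Tcof1, which rests on 0.587 to 3.47 CPM, with 1.41 (SE 0.57, adjusted p = 0.307). Of the genes for transport and 3′ trimming (5 tested), Exosc10, a nuclear exonuclease, had 0.43 (SE 0.20, adjusted p = 0.394) and Tgs1, which trimethylates caps, had 0.58 with passage (SE 0.22, adjusted p = 0.18).

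Among 15 tested noncoding hosts the medians were -0.07 with genotype and -0.11 with passage. Snhg9, host of Snora78, was at 8.81 and 22.5 CPM at passage 34 and at 7.50 and 6.36 at passage 42 (log2 fold change with passage -1.05, SE 0.33, adjusted p = 0.0551). Snora78 itself had -0.31 (SE 0.18, adjusted p = 0.54). Some other structural RNAs of the same preparation were far more abundant in CPM, which are not scaled by length. Rpph1, the RNA of RNase P, was between 15124 and 24563 CPM and Rmrp, that of RNase MRP, between 12247 and 16522. Others of that list were low, with Rprl3 at a mean of 1.14 CPM. Rnu11, a minor spliceosome RNA, was the only call of that list of 7 tested, against 2.31% of all IDs called with passage. It had 1451 and 853 CPM at passage 34 and 647 and 686 at passage 42 (-0.74, SE 0.20, adjusted p = 0.0135, edgeR). With passage 6 of the 7 had a fold change below 0. Terc, the telomerase RNA, which also carries an H/ACA box, had 32.1, 43.7, 19.8 and 27.3 CPM (-0.69, SE 0.26, adjusted p = 0.161).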

How the data were processed

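RNA sequencing of 4 imMDF libraries was analysed. The authors clipped adapters with cutadapt, aligned reads to NCBI37/mm9 with TopHat2 2.0.9, counted those of a mapping quality above 20 per RefSeq transcript with htseq-count, and deposited raw counts. For the strand setting, no value was found in the sources. Reads in no transcript or in several were left out of library sizes.

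Symbols came from RefSeq (GRCm38.p6, 32308 IDs matched), and lengths, hosts and sequences from GENCODE of NCBIM37, the authors' build. The 13855 IDs that reached 1 CPM in both libraries of WT or of KO were tested with edgeR 4.0.16 in R 4.3.3 (TMM, quasi-likelihood test, threshold 0.05 after Benjamini-Hochberg adjustment over all of them). The SE is the fold change over the square root of the statistic. CPM use TMM library sizes. The biological coefficient of variation was 21.8% in the genotype fit and 18.6% in the passage fit. The procedure was tested on simulated data. DESeq2 1.42.0 and other settings were alternatives.

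The members and lists were chosen with earlier results of these data known. Named are the 6 most abundant members of each class, every called member, the 4 with the smallest p in each comparison and direction, members over 200 nt, their hosts, up to 3 genes of each list and the genes nearest in pattern. Others are named after their values were seen.

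Marker lists of keratinocytes, melanocytes, endothelium, leukocytes and muscle gave no call in either comparison, against 2.75% (genotype) and 2.31% (passage) of all IDs. They summed to at most 43.7 CPM each in a library. Fibroblast markers summed to 11941 CPM or more.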

Additional observations from a re-analysis of the deposited data

Results flagged for a closer look

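Values were set apart where the direction of a difference was opposite at the 2 passages or in the 2 genotypes, each by more than 2 standard errors of counting. The difference between the directions was not tested, and with 1 library for each genotype and passage it includes any difference between libraries.

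Summed over all members, the log2 difference of KO minus WT was -0.0763 at passage 34 and 0.25 at passage 42, and that of passage 42 minus passage 34 was -0.21 in WT and 0.11 in KO. Box H/ACA sums differed by -0.14 and 0.13 between the genotypes at the 2 passages, and box C/D sums by -0.0292 in WT and 0.32 in KO between the passages. The scaRNA sums gave -0.25 and 0.45 for genotype at passage 34 and 42, and -0.40 and 0.29 for passage in WT and KO.

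Of single members, KO minus WT at passage 34 and 42 was -0.33 and 0.58 for Snord22, -0.11 and 0.10 for Snora65, -0.51 and 0.41 for Snora81, 0.27 and -0.17 for Snord100, -0.21 and 0.45 for Snord104 and -0.96 and 0.17 for Scarna10. Passage 42 minus passage 34 in WT and KO was -0.62 and 0.30 for Snora81, -0.34 and 0.0832 for Snord17, -0.61 and 0.29 for Scarna13 and -0.57 and 0.56 for Scarna10.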

How the results depend on the processing

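The replicate number is also the passage, and no source pairs the libraries beyond it. With the replicate block, 1 member (Snord11, log2 fold change 1.06, adjusted p = 0.0315, edgeR) was called for genotype against 0 without it, and over all IDs the count went from 381 to 1092. Deviations of same-numbered libraries from their genotype means had a Pearson r of 0.17 over all IDs tested and 0.40 over the 95 tested members. Leaving out 1 library gave between 0 and 6 calls for genotype, with a lone library assumed to vary like the other genotype. For passage it gave 0 each time, but those fits also had no genotype block, and without the block 0 were called from all 4 libraries too. For passage, DESeq2 called 1 member and gave no adjusted p for 23, the likelihood ratio test 3 and the fit with no genotype block 0, against 6, and the other settings called 4 to 6. The box H/ACA median for genotype was between -0.16 and 0.18 when 1 library was left out, and that of box C/D between 0.0278 and 0.44. The box C/D median for passage was 0.20 with all reads in the file as library size, and between 0.20 and 0.42 when 1 library was left out. The genotype value of Snord87 was between -0.22 (without the KO library of passage 42) and 2.16 when 1 library was left out. The causes were not tested. In all, 147 alternative values of the main comparisons stayed within 1 SD of the replicates (for counts, within 1.5 times) and 15 did not. Some of the 147 could hardly move, since each member has 1 ID and other edgeR tests give nearly the same fold changes. Each SD is taken over 1 value per passage or per genotype, so the tally does not measure stability. Short members with few counts and the size selection of the RNA limit what a low value shows.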

Other observations

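The genes outside the members whose log2 CPM ran nearest to the summed members over the 4 libraries were Tut1, Mff, Sf3b1 and Mrps7, with Euclidean distances of 0.0157 to 0.0188 between centred values. Tut1, a terminal uridylyltransferase that acts on U6 RNA, was at 44.1 and 42.1 CPM at passage 34 (WT before KO) and at 38.6 and 45.9 at passage 42. Sf3b1, a U2 spliceosome protein, was at 449, 418, 386 and 457 CPM in the same order. With 4 libraries many genes run alike, and nothing on shared control is drawn from it.

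Scarna3b, chosen after its values were seen, was left out of the main fits by the filter on low values. Its WT libraries held 1 and 2 counts, at passage 34 and 42, whereas its KO libraries held 15 and 12. The fit with no filter on low counts and that with at least 10 counts in all both included it. They called 0 members for genotype, against 2.98% and 1.88% of all IDs. Scarna3b lies inside Dcaf5, which was at 41.8 and 58.1 CPM at passage 34 and 37.5 and 66.4 at passage 42 (WT before KO). The log2 fold change of Dcaf5 with genotype was 0.65 (adjusted p = 0.183, edgeR).

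Zeros fell unevenly over the libraries. The KO library of passage 34 was alone at 0 for 1010 IDs, against 532 for WT at passage 34, 237 for WT at passage 42 and 358 for KO at passage 42, although it held more reads than the WT library of its passage (15786136 against 12168433). Among the 114 members 4 were at 0 in that library alone, a share near that of all IDs (1010 of 32757), and 0 in any other library alone. Snord70 was among 6 IDs at 0 in that library with at least 10 counts in each of the others, at 11, 16 and 54 counts. The part of these zeros in the comparisons was not tested.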
